A study of Mus musculus with 6 samples.

Results

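Non-muscle myosin II, the motor that pulls on actin filaments, and the enzymes that set its activity were examined through 8 genes of the 16423 in the deposited table. They were chosen by name and role: the heavy chains Myh9 and Myh10, the essential light chain Myl6, the regulatory light chains Myl9, Myl12a and Myl12b, the light chain kinase Mylk, and Ppp1r12a, the targeting subunit of the light chain phosphatase. All 8 had a row in the table and all passed the filter for the test, a mean of at least 1 FPKM (reads scaled by gene length and library total) over the 6 libraries. The cells were C3H10T1/2, a mouse mesenchymal stem cell line. They were turned into adipocytes with a mixture that held rosiglitazone, insulin, triiodothyronine, dexamethasone, indomethacin and 3-isobutyl-1-methylxanthine, and from the third day with triiodothyronine, insulin and rosiglitazone alone. On day 4 they received siRNAs against Ybx1 (siYBX1, 3 libraries) or a control siRNA (siNC, 3 libraries), and RNA was taken 48 h later. Both groups were thus differentiated and transfected alike. The labels give neither the siRNA sequences nor whether the libraries came from separate cultures, so every p-value below reflects library-to-library spread alone, and that spread may be technical.

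Myosin II is built from heavy chains, which hold the motor, and a regulatory and an essential light chain bound to each of them. The motor is switched on when myosin light chain kinase, a calmodulin-dependent enzyme, phosphorylates the regulatory light chain, and it is switched off when myosin phosphatase removes that phosphate. Spread mesenchymal cells keep a strongly contractile actin and myosin network, which is rearranged as they become rounded, lipid-filled adipocytes.

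The regulatory light chain is encoded by 3 similar genes, and the stretch that carries the switch is shown to compare them. These are bases of the coding sequence from codon 14 to codon 25, counted from the start codon, in GENCODE vM21 transcripts. Capitals mark codons 19 and 20, for the threonine and the serine that the kinase phosphorylates.
Myl9: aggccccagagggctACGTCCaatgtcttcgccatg
Myl12a: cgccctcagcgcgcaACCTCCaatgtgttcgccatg
Myl12b: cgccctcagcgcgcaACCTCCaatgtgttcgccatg
Myl12a and Myl12b, neighbours on chromosome 17, were identical over these 36 bases, and the Myl9 gene on chromosome 2 was not. Over the whole coding sequence of 516 bases, Myl12a and Myl12b shared 96.5% of bases, Myl9 and Myl12b 86.4%, and Myl9 and Myl12a 85.7%. The longest run of identical bases was 120 between the Myl12a and Myl12b transcripts and 35 between Myl9 and either of them. The same annotation holds a second gene entry under the symbol Myl12b whose exons share 739 bases with Myl12b and 462 with Myl12a. How reads in such stretches were counted is not given in the sources used here, so the separate values of Myl12a and Myl12b are uncertain.

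Stretches before the transcription start of Myl9 and Myl6 are shown because, of the 8 genes, they are the ones whose windows of 250 bases before an annotated start hold a CArG box, the motif that serum response factor recognises. They come from RefSeq on GRCm38.p6, a different build from the GRCm39 named in the submitters' processing notes. Each stops where an annotated exon of a spliced transcript begins within its window. The CArG box, searched on both strands, is in capitals.
Myl9, chr2:156775214-156775419, plus strand: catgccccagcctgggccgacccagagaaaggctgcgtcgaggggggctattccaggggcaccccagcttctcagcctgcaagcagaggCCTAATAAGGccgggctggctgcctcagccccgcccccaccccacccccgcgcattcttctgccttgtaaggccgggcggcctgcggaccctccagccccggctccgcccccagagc
Myl6, chr10:128493046-128493259, minus strand: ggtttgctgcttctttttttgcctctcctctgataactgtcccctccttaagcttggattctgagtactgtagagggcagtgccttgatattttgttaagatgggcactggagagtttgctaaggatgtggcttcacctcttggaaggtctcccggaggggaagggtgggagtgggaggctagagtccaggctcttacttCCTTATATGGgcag
The box begins 161 bases before the Myl9 start and 50 bases before 1 of the 2 annotated Myl6 starts. Counted from the other Myl6 start, the Myl6 stretch and its box lie downstream, inside the gene. The deposited values are per gene and do not show which Myl6 start was used. Of 32851 promoter windows in the table, 1.47% hold a CArG box, and 2 of the 9 windows of the 8 genes do. A match describes these letters and does not show binding.

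Each library rested on 31957411 to 35410308 reads in siYBX1 and 34207232 to 35299269 reads in siNC, totals recovered from the steps of the FPKM values. Ybx1 had 59.3, 67.9 and 61.3 FPKM in siYBX1 replicates 1 to 3, against 135, 134 and 129.6 FPKM in siNC replicates 1 to 3, which left 47.3% of the control mean (log2 fold change -1.07, adjusted p = 3.98e-06, limma). Adipocyte markers were present: 7 of 8 were above the filter, and their summed level was 2901 to 3378 FPKM in siYBX1 and 2425 to 3337 FPKM in siNC. The largest part of that sum was Fabp4, a fatty acid binding protein, which did not pass (log2 fold change 0.26, adjusted p = 0.209, limma). Cebpa stayed below 1 FPKM. Of the 7 tested markers none rose and 1 fell, Cfd, the secreted protease adipsin, with 355 ± 8.13 FPKM in siYBX1 and 445 ± 44.2 FPKM in siNC (SD, n = 3 each; log2 fold change -0.32, adjusted p = 0.0136, limma). That call was lost without siYBX1 replicate 3 (-0.30), without siNC replicate 3 (-0.27) and without a filter on low values. The lipid droplet proteins Plin1 and Cidec stood at -0.18 and -0.25 and did not pass, but both passed as lower with TPM, with quantile normalization and without siNC replicate 1, as Plin1 did after a correction for gene length, with voom on recovered reads and without siYBX1 replicate 1. Adipoq, the hormone adiponectin, passed as lower without siNC replicate 1 (-0.25). Whether these marker differences have a part in the results below was not tested. Among 10341 genes tested, 20.6% were called at an adjusted p below 0.05 (limma, two-sided), 9.54% higher and 11.1% lower in siYBX1. With each library rescaled to TPM these calls were 662 higher and 1573 lower, against 987 and 1145. Library siNC replicate 1 lay apart from the other controls, with a chi-square per gene of 26.8 and 22.8 against them, compared with 5.01 between those. Values without it are given where a call turns on it.

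Of the 8 genes, 4 rose (Myl9, Mylk, Myl6 and Myl12a) and 1 fell (Myh10) in siYBX1, where 9.54% and 11.1% of all tested genes did. Groups were apart for these same 5 genes, and for 40.9% of all tested genes. Myl12b, Myh9 and Ppp1r12a did not pass. The median log2 fold change was 0.28 over the 8 genes and -0.011 over all tested genes. Leaving out siNC replicate 1 or correcting for gene length brought the number that rose to 6, with Myh9 and Ppp1r12a added, and left 1 that fell. In a mixed culture fewer cells of a type and less RNA per cell cannot be told apart.

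**Figure D1:**
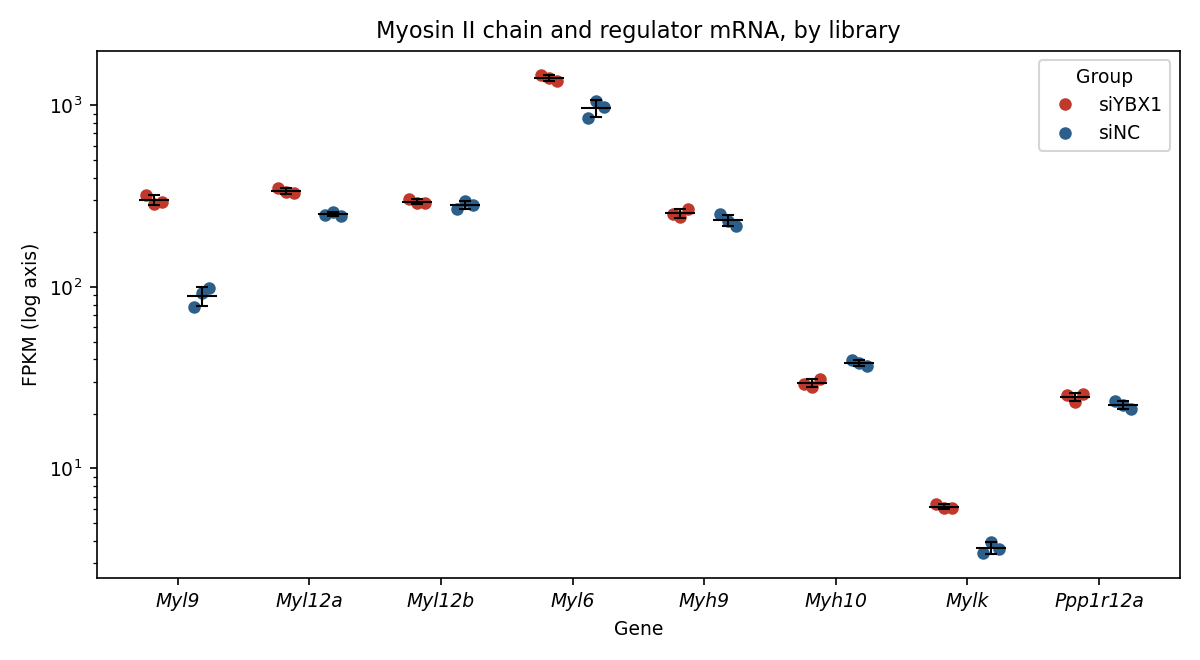
FPKM (log axis) of the 8 genes in each library, siYBX1 in red on the left of each pair and siNC in blue; the horizontal mark is the mean and the bar the SD of 3 libraries. Myl9 shows the widest gap, 287 to 322 FPKM in siYBX1 and 77.7 to 98.9 FPKM in siNC, and Myh10 is the only one of the 8 genes whose siYBX1 libraries all lie below the siNC libraries.

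Myl9 is the regulatory light chain typical of smooth muscle and contractile cells. It had 322, 287 and 294 FPKM in siYBX1 replicates 1 to 3, against 77.7, 92.3 and 98.9 FPKM in siNC replicates 1 to 3. Every siYBX1 library was above every siNC library by a wide margin, and the libraries within a group lay close together. The means were 301 ± 18.2 FPKM in siYBX1 and 89.6 ± 10.9 FPKM in siNC (SD, n = 3 each), a 3.36-fold difference. The log2 fold change was 1.74 (SE 0.08, 95% confidence interval 1.56 to 1.93, adjusted p = 1.17e-06, limma), the 3rd highest of the 10341 tested genes. These values rested on 11520 to 12080 reads per library in siYBX1 and 3174 to 4103 reads in siNC. An exact two-sided permutation test of the means gave p = 0.1, the smallest that 3 against 3 libraries allow, and gave the same p for Mylk, Myl6, Myl12a and Myh10.

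Myl12a and Myl12b encode the regulatory light chains found in most cell types. Myl12a had 351, 335 and 328 FPKM in siYBX1 replicates 1 to 3, against 249.9, 258 and 246 FPKM in siNC replicates 1 to 3. The groups did not overlap, and the means of 338 ± 11.9 FPKM in siYBX1 and 251 ± 6.05 FPKM in siNC (SD, n = 3 each) differed 1.34-fold. Its log2 fold change was 0.43 (SE 0.06, 95% confidence interval 0.30 to 0.55, adjusted p = 0.000786, limma). Myl12b had 305, 288 and 291 FPKM in siYBX1 and 267, 298 and 283 FPKM in siNC, with overlapping groups. Its log2 fold change of 0.06 (SE 0.06, adjusted p = 0.491, limma) had a 95% confidence interval of -0.07 to 0.19, and its sign turned with quantile normalization (-0.07) and with a correction for gene length (-0.03).

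The 3 regulatory genes therefore changed unequally. The log2 ratio of Myl9 to Myl12a was -0.12, -0.22 and -0.16 in siYBX1 replicates 1 to 3, against -1.69, -1.48 and -1.31 in siNC replicates 1 to 3. The ratio of Myl9 to Myl12b was 1.69 higher on the log2 scale in siYBX1 and that of Myl12a to Myl12b 0.36 higher. For all 3 ratios the groups did not overlap, and the exact two-sided permutation test gave p = 0.1, also after adjustment over the 5 ratios tested. In FPKM, which is per gene length, the summed regulatory light chain level was 933 ± 38.3 in siYBX1 and 623 ± 27.0 in siNC (SD, n = 3 each). Myl9 made up 32.9%, 31.6% and 32.2% of that sum in siYBX1 replicates 1 to 3, against 13.1%, 14.2% and 15.8% in siNC replicates 1 to 3. Myl12a made up 36.2% ± 0.505 in siYBX1 and 40.3% ± 1.51 in siNC, and Myl12b 31.6% ± 0.337 in siYBX1 and 45.3% ± 0.599 in siNC (SD, n = 3 each). Thus Myl9 was the least abundant of the 3 in every siNC library, and the 3 lay within 47.3 FPKM of each other in every siYBX1 library. That closeness depends on the gene lengths behind FPKM, recovered as 1175 bases for Myl9, 1907 for Myl12a and 939 for Myl12b.

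**Figure D2:**
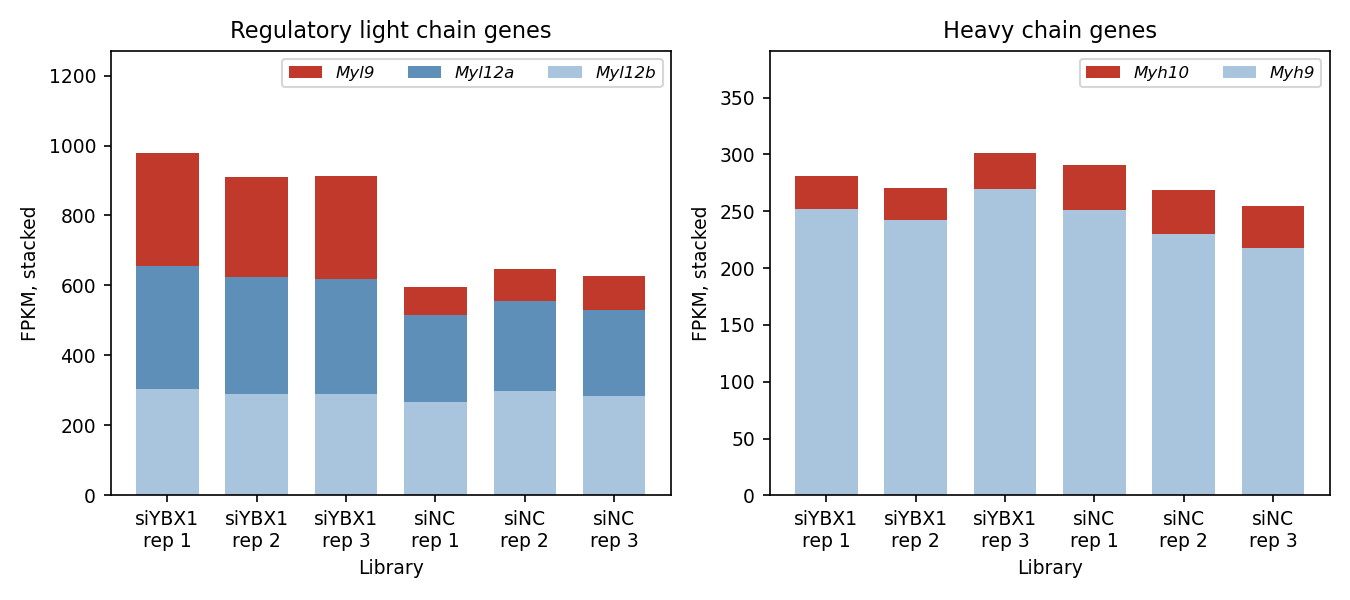
Stacked FPKM of the regulatory light chain genes (left) and of the heavy chain genes (right) in each library, siYBX1 on the left and siNC on the right of each panel. The Myl9 block (red, left panel) is 31.6% to 32.9% of the sum in siYBX1 and 13.1% to 15.8% in siNC, and the Myh10 block (red, right panel) 10.4% to 10.5% in siYBX1 and 13.6% to 14.5% in siNC.

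Myl6, the essential light chain that stabilises the lever arm of the motor, was the most abundant of the 8 genes in every library. It had 1475, 1411 and 1368 FPKM in siYBX1 replicates 1 to 3, against 851, 1055 and 984 FPKM in siNC replicates 1 to 3. The siYBX1 libraries all lay above the siNC libraries, and siNC replicate 1 was the lowest. The means were 1418 ± 54.0 FPKM in siYBX1 and 963 ± 104 FPKM in siNC (SD, n = 3 each), a 1.47-fold difference with a log2 fold change of 0.56 (SE 0.09, adjusted p = 0.00184, limma). The gene gives rise to smooth muscle and non-muscle splice forms, which values per gene do not separate. Relative to the summed regulatory light chains, Myl6 was at 1.52 ± 0.0272 in siYBX1 and 1.54 ± 0.101 in siNC (ratio of FPKM, SD, n = 3 each), with overlapping groups.

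Of the heavy chains, Myh10 fell and Myh9 did not pass. Myh9, the heavy chain of non-muscle myosin IIA, had 252, 242 and 269.8 FPKM in siYBX1 replicates 1 to 3, against 251, 230.3 and 217 FPKM in siNC replicates 1 to 3, and the groups overlapped. Its log2 fold change was 0.13 (SE 0.07, 95% confidence interval -0.02 to 0.28, adjusted p = 0.203, limma). It passed without siNC replicate 1 (0.18, adjusted p = 0.0487, limma) and after the length correction (0.19, adjusted p = 0.0420, limma), while quantile normalization put it at 0.02. Myh10, the heavy chain of non-muscle myosin IIB, had 29.3, 28.2 and 31.2 FPKM in siYBX1 replicates 1 to 3, against 39.6, 38.1 and 36.8 FPKM in siNC replicates 1 to 3. All siYBX1 libraries were below all siNC libraries. Myh10 fell, with means of 29.6 ± 1.49 FPKM in siYBX1 and 38.2 ± 1.40 FPKM in siNC (SD, n = 3 each) and a log2 fold change of -0.36 (SE 0.06, 95% confidence interval -0.48 to -0.24, adjusted p = 0.00204, limma).

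The log2 ratio of Myh9 to Myh10 was 3.10, 3.10 and 3.11 in siYBX1 replicates 1 to 3, against 2.67, 2.59 and 2.56 in siNC replicates 1 to 3. The groups did not overlap (exact two-sided permutation p = 0.1). Myh10 made up 10.4% ± 0.0472 of the summed heavy chain FPKM in siYBX1 and 14.1% ± 0.444 in siNC (SD, n = 3 each). The sum of both heavy chains was 284 ± 15.6 FPKM in siYBX1 and 271 ± 18.6 FPKM in siNC (SD, n = 3 each), with overlapping groups. Set against that sum, regulatory light chain FPKM stood at 3.48, 3.37 and 3.03 in siYBX1 replicates 1 to 3, against 2.04, 2.41 and 2.47 in siNC replicates 1 to 3. Myl6 stood at 5.25, 5.22 and 4.55 times the heavy chain sum in siYBX1, against 2.92, 3.93 and 3.87 times in siNC. Both light chain ratios were higher in every siYBX1 library than in any siNC library. They set shorter genes against long ones and were not corrected for the length trend described below, which goes in the same direction. That correction moved the log2 fold change of Myl6 from 0.56 to 0.47 and that of Myh9 from 0.13 to 0.19. It lowered the other light chains and raised Myh10 as well.

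Mylk encodes myosin light chain kinase, which phosphorylates the serine shown above. It had 6.37, 6.10 and 6.03 FPKM in siYBX1 replicates 1 to 3, against 3.41, 3.95 and 3.62 FPKM in siNC replicates 1 to 3, and the groups did not overlap. The means were 6.17 ± 0.183 FPKM in siYBX1 and 3.66 ± 0.272 FPKM in siNC (SD, n = 3 each), a 1.69-fold difference with a log2 fold change of 0.62 (SE 0.07, adjusted p = 0.000270, limma). Mylk was the least abundant of the 8 genes, and 1708 to 1833 reads per library in siYBX1 and 1007 to 1147 reads in siNC lay behind these values. The locus yields a long and a short kinase and telokin, a kinase-free fragment, which were not separated here.

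Ppp1r12a, which brings the phosphatase to myosin, had 25.3, 23.4 and 25.7 FPKM in siYBX1 replicates 1 to 3, against 23.6, 22.3 and 21.2 FPKM in siNC replicates 1 to 3. The groups overlapped by 1 library on each side. Its log2 fold change was 0.14 (SE 0.06, 95% confidence interval 0.01 to 0.28, adjusted p = 0.110, limma), which became a call after the length correction (0.20, adjusted p = 0.0325, limma) or when siNC replicate 1 was left out (0.18, adjusted p = 0.0491, limma). The ratio of Mylk to Ppp1r12a FPKM was 0.251, 0.261 and 0.234 in siYBX1 replicates 1 to 3, against 0.144, 0.177 and 0.171 in siNC replicates 1 to 3. These did not overlap (exact two-sided permutation p = 0.1 for the log2 ratio).

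**Figure D3:**
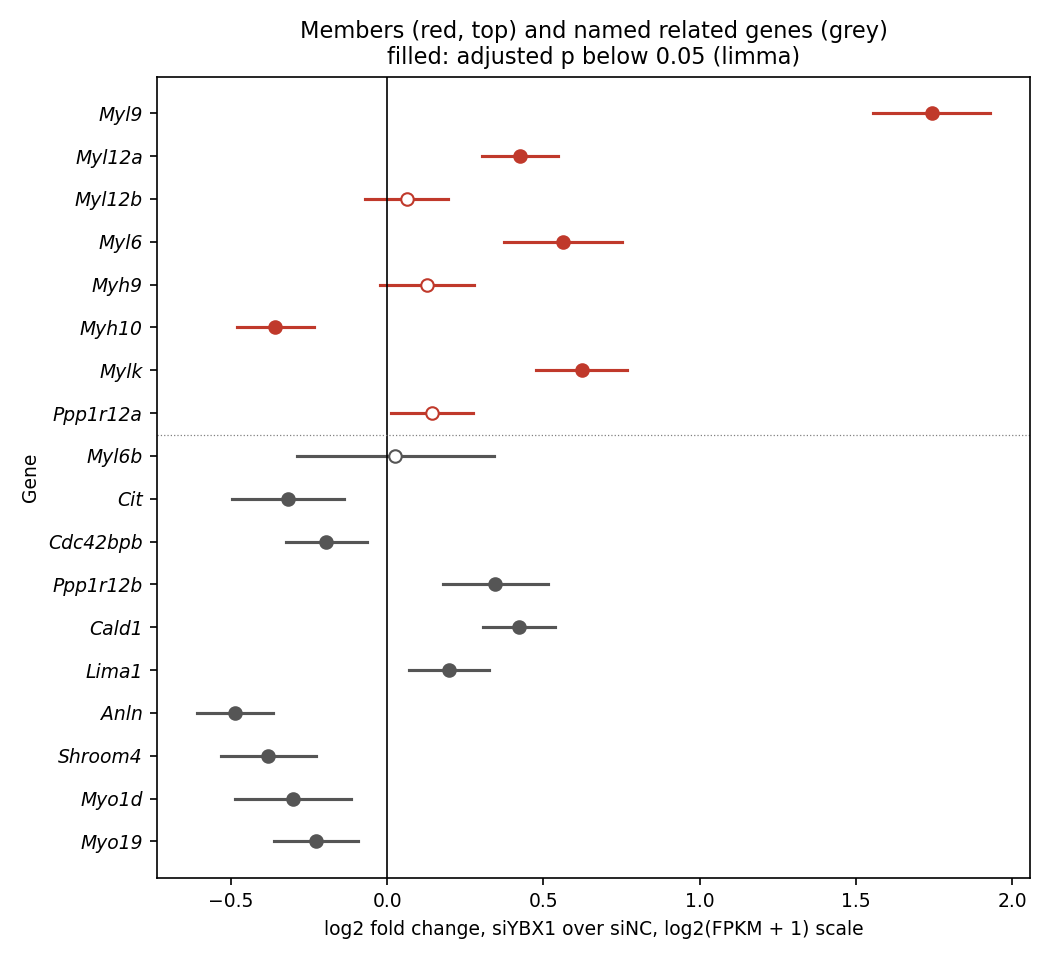
Log2 fold change of siYBX1 over siNC on the log2(FPKM + 1) scale with its 95% confidence interval (limma), for the 8 genes in red above the dotted line and for the named genes of related lists in grey; filled points passed an adjusted p of 0.05. Myl9 stands at 1.74, and Mylk, Myl6 and Myl12a between 0.43 and 0.62.

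Short genes as a whole were slightly higher in siYBX1 and long genes slightly lower. Tested genes were divided by length into 5 groups of nearly equal size. Among the shortest, which holds Myl9, Myl12b and Myl6, the median log2 fold change was 0.078 and 18.9% were called higher. Among the longest, which holds Myh9, Myh10 and Mylk, the median was -0.067 and 14.4% were called lower. After each library was corrected for length, the log2 fold changes were 1.67 for Myl9, 0.47 for Myl6, 0.40 for Myl12a, 0.69 for Mylk and -0.29 for Myh10, and all 5 still passed (highest adjusted p = 0.00307, limma).

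**Figure D4:**
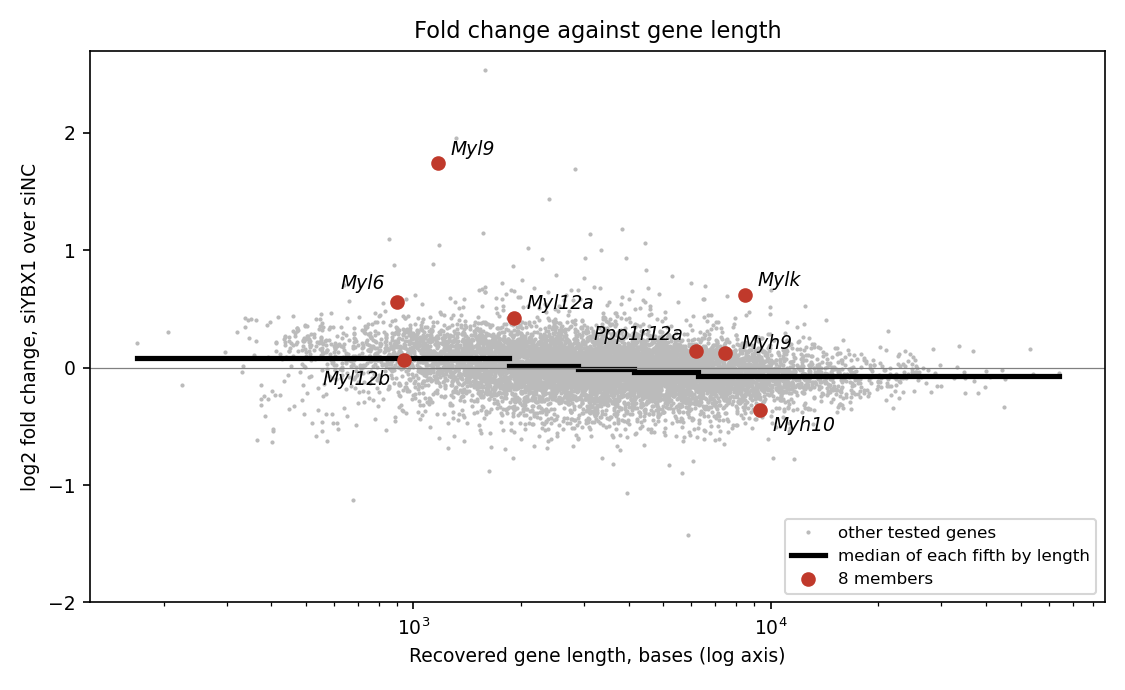
Log2 fold change of siYBX1 over siNC against recovered gene length (log axis) for all tested genes in grey, the 8 genes in red, and the median of each of 5 length groups as black bars. The bars descend from 0.078 to -0.067, and Myl9 at 1.74 and Mylk at 0.62 stand far above the bars at their lengths.

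Genes whose values moved across the 6 libraries most like those of Myl9 were sought among 5259 genes averaging 10 FPKM or more, predicted genes left out, by the root mean square difference of log2(FPKM + 1) profiles after each gene's own mean was subtracted. The nearest was Acta2, smooth muscle actin (0.073), with 1671 ± 35.7 FPKM in siYBX1 and 518 ± 29.7 FPKM in siNC (SD, n = 3 each). Then came Actg2, another smooth muscle actin (0.170), Ccn2, a matricellular protein (0.255), Mustn1, a small muscle and skeletal protein (0.378), and Ptgs2, the inducible cyclooxygenase (0.404). Of the other members, Myl6 was 32nd and Myl12a 77th in that order, Ppp1r12a 1386th, Myh9 1658th, Myl12b 2058th and Myh10 5099th. Mylk lay below the level needed. Where libraries within a group lie close together, this distance mostly follows the difference in log2 fold change. The order therefore largely repeats the fold changes and adds no separate evidence.

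Among markers of other cell types, 5 of 7 tested smooth muscle markers rose and none fell. Over all tested genes 9.54% rose and 11.1% fell. Des and Smtn did not pass and had log2 fold changes of -0.13 and -0.11. The summed level of the smooth muscle markers was 1771 to 1841 FPKM in siYBX1 and 535 to 584 FPKM in siNC. Acta2 made up most of it. Myh11, the heavy chain that defines smooth muscle myosin, was at 0.0751 to 0.112 FPKM in siYBX1 and 0.125 to 0.142 FPKM in siNC, and Cnn1 and Myocd also stayed below 1 FPKM in every library. Striated muscle markers summed to 4.85 to 4.98 FPKM in siYBX1 and 5.45 to 6.55 FPKM in siNC, with 12 of 15 below 1 FPKM throughout. The only striated marker tested, Actn3, fell from a mean of 2.62 FPKM in siNC to 1.39 FPKM in siYBX1 (adjusted p = 0.00677, limma). Macrophage markers summed to 11.3 to 17.2 FPKM in siYBX1 and 15.9 to 29.5 FPKM in siNC. Of these, 3 of 5 stayed below 1 FPKM throughout, and Cd68 and Cd14 made up nearly all of the sum. Endothelial markers summed to 16.1 to 18.2 FPKM in siYBX1 and 16.8 to 21.7 FPKM in siNC. Of these, 3 of 4 stayed below 1 FPKM throughout, and Egfl7 made up nearly all of the sum. No tested marker of these macrophage and endothelial lists was called. Egfl7 did pass as lower without siNC replicate 1 (-0.29, adjusted p = 0.00864, limma). Cd68 passed as lower with TPM (-0.77, adjusted p = 0.0467, limma). The part of the smooth muscle markers in the rise of Myl9 was not tested.

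Other myosin II chains were nearly absent. Of 15 in the table, such as the heavy chains of smooth and striated muscle and the non-muscle Myh14, only Myl6b, a second essential light chain gene, passed the filter. It had 1.74 ± 0.520 FPKM in siYBX1 and 1.68 ± 0.392 FPKM in siNC (SD, n = 3 each; adjusted p = 0.918, limma). The highest value of the other 14 in any library was 0.699 FPKM.

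Among other kinases that act on the light chain, and calmodulin, none of 11 tested genes rose and 2 fell. For this list and those below, the shares over all tested genes were 9.54% higher and 11.1% lower. Cit, citron kinase of the cytokinetic furrow, had 0.865 ± 0.159 FPKM in siYBX1 and 1.32 ± 0.0277 FPKM in siNC (SD, n = 3 each; log2 fold change -0.32, adjusted p = 0.0204, limma). Its siYBX1 mean lay below the filter of 1 FPKM, so Cit was tested only because of its siNC values. For this gene the filter itself favoured a fall, and its call carries little weight. Cdc42bpb, a Cdc42-regulated kinase, had 11.3 ± 0.545 FPKM in siYBX1 and 13.1 ± 0.532 FPKM in siNC (SD, n = 3 each; adjusted p = 0.0393, limma). Both calls were lost after the length correction (adjusted p = 0.0552 for Cit and 0.102 for Cdc42bpb, limma). With that correction the kinase Rock2 passed as higher instead (0.19, adjusted p = 0.0231, limma). Before it, Rock2 was not called (0.12, adjusted p = 0.0960, limma), though its groups did not overlap. Rock2 is named here after its values were seen. The calls of Cit and Cdc42bpb were also lost without siYBX1 replicate 1 and without siNC replicate 3. Without siNC replicate 2 the call of Cit was lost (-0.31), and without siYBX1 replicate 2 (-0.19) or siNC replicate 1 (-0.17) that of Cdc42bpb, which was also lost without a filter on low values.

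Of 7 tested genes of the myosin phosphatase, 1 rose and none fell. This was Ppp1r12b, a targeting subunit related to Ppp1r12a, with 9.83, 9.50 and 11.1 FPKM in siYBX1 replicates 1 to 3, against 8.55, 7.37 and 7.38 FPKM in siNC replicates 1 to 3 (log2 fold change 0.35, SE 0.08, adjusted p = 0.0103, limma). It was called without any 1 library and lost only without a filter on low values (adjusted p = 0.0557, limma), among the alternatives tried.

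Among 9 tested genes for myosin II assembly and partners, 2 rose and 2 fell. Cald1, caldesmon, which binds actin and myosin, had 78.5, 75.4 and 77.9 FPKM in siYBX1 replicates 1 to 3, against 60.1, 57.3 and 54.9 FPKM in siNC replicates 1 to 3 (log2 fold change 0.42, SE 0.05, adjusted p = 0.000617, limma). Lima1, an actin-bundling protein, rose by less (0.20, adjusted p = 0.0358, limma), and that call was lost with TPM, with quantile normalization, without a filter on low values and without siYBX1 replicate 1 or 3 or siNC replicate 2 or 3. Anln, anillin, a scaffold of the cleavage furrow that binds myosin, had 18.2, 19.3 and 17.8 FPKM in siYBX1 replicates 1 to 3, against 27.1, 26.3 and 25.1 FPKM in siNC replicates 1 to 3 (log2 fold change -0.49, SE 0.06, adjusted p = 0.000396, limma). Shroom4, an actin-binding protein, had a log2 fold change of -0.38 (adjusted p = 0.00414, limma).

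**Figure D5:**
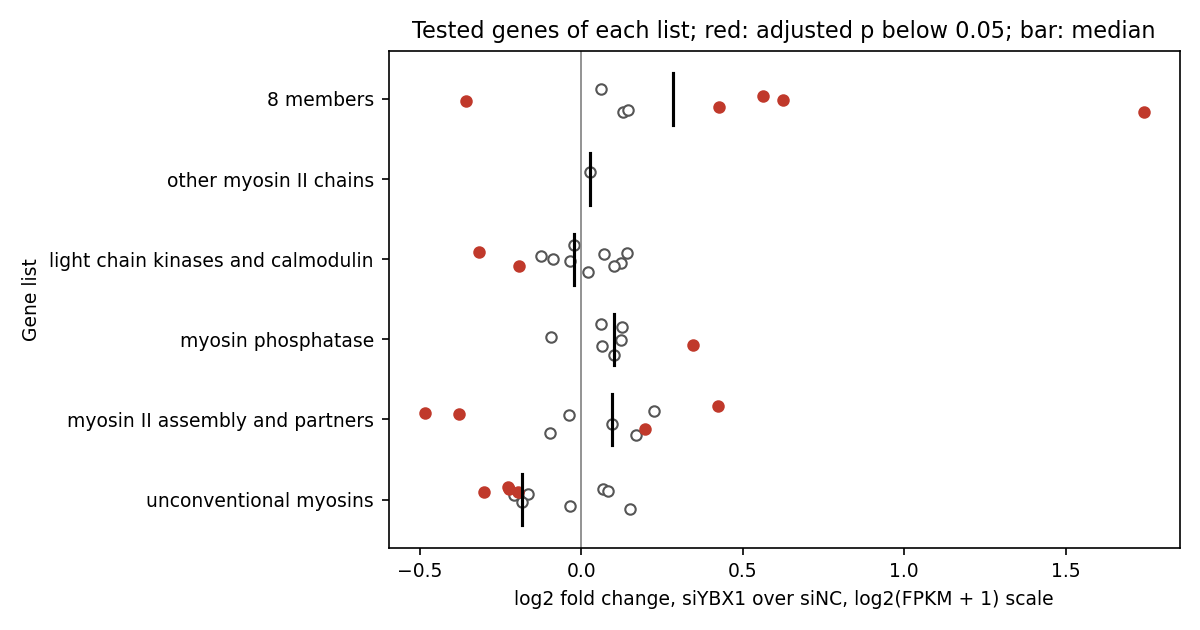
Log2 fold change of siYBX1 over siNC for each tested gene of the 8 members and of 5 related lists, red where the adjusted p was below 0.05 (limma), with the list median as a black bar. The members' median is 0.28, and the medians of the other lists lie between -0.18 and 0.099.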

How the data were processed

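RNA was sequenced from 6 libraries. The authors deposited FPKM values, 1 column per library and matched to the samples by name and number. Tools listed in the submitters' processing notes are HTSeq, HISAT2 and fastp, with GRCm39 as the build and no tool versions or roles. Strand setting and the treatment of shared reads are not given in the sources used here. Library totals and reads were recovered from the FPKM steps (tolerance 0.02 reads) for 16422 of 16423 genes. GENCODE vM21 exon lengths of 116 genes were used to fix the total. The smallest length that gave whole reads was taken for each gene, and it equalled the GENCODE vM21 exon length for 162 genes.

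Differences were tested on log2(FPKM + 1) by limma 3.58.1 in R 4.3.3, with the prior variance following mean expression, over genes averaging 1 FPKM or more (two-sided, Benjamini-Hochberg adjusted over 10341 genes, threshold 0.05). The procedure was also run on simulated reads with known changes. That simulation gave every gene the same extra spread and held no length trend and no outlying library. It therefore says nothing about those features. Fold changes on that scale understate the change of low genes; ratios called fold are ratios of mean FPKM. Exact permutation tests used scipy 1.17.1 (Python 3.11.15). Alternatives were a pseudocount of 0.1, no filter, a filter of 5 FPKM, TPM, quantile normalization, voom on recovered reads, length correction, a replicate block and leaving out each library. The length correction subtracts a loess curve (span 0.3) per library. All 8 members are named; from each related list the 2 largest called rises and falls, or the 2 most abundant tested genes where none passed; and the 5 genes nearest to Myl9. One list is not reported here. Members, lists and settings were chosen with earlier results of these data known.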

Additional observations from a re-analysis of the deposited data

How the results depend on the processing

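The calls of Myl9, Myl12a, Myl6 and Myh10 held under all 14 alternatives, and that of Mylk under the 13 that could test it, since its mean lies below a filter of 5 FPKM. Their log2 fold changes ranged from 1.64 to 1.82 for Myl9, 0.30 to 0.45 for Myl12a, 0.42 to 0.63 for Myl6, 0.58 to 0.76 for Mylk and -0.42 to -0.29 for Myh10. Myl12b turned to -0.069 with quantile normalization and -0.027 with the length correction. Myh9 passed at 0.19 and Ppp1r12a at 0.20 with the length correction. Leaving out each library in turn gave 0.079 to 0.18 for Myh9 and 0.11 to 0.19 for Ppp1r12a. Myl6b, not called, turned to -0.012 with TPM and -0.060 with the length correction, and lay between -0.088 and 0.19 with 1 library left out. Over all genes, 577 were called higher and 664 lower without a filter on low values. With 1 library left out, 547 to 970 were called higher and 604 to 1056 lower. The causes of these shifts were not tested.

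The labels state no pairing of same-numbered libraries. Their deviations from the group means correlated at -0.31, -0.13 and -0.25, and no library correlated best with its own number. With so few libraries these values cannot settle whether same-numbered libraries were prepared together. A fit with the replicate number as a block called 607 genes higher and 739 lower and kept the same 5 calls among the 8 genes, with an adjusted p of 7.8e-06 for Myl9 (limma). It made no call for Cdc42bpb, Lima1 or any unconventional myosin. The thinnest values tested among the named genes are those of Myl6b, with 38 to 74 reads per library in siYBX1 and 46 to 72 in siNC.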

Other observations

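Unconventional myosins, many of which carry cargo or tether membranes, showed no rise among 11 tested genes, and 4 fell (Myo1d, Myo19, Myo5a and Myo1c). The shares over all tested genes were 9.54% higher and 11.1% lower. The list median log2 fold change was -0.18. Of the 25 in the table, 14 lay below the filter, at no more than 0.654 FPKM in any library. Myo1d, a membrane-bound class I motor, had 2.78, 3.12 and 2.98 FPKM in siYBX1 replicates 1 to 3, against 4.45, 3.42 and 3.82 FPKM in siNC replicates 1 to 3 (log2 fold change -0.30, adjusted p = 0.0284, limma). Myo19, a motor on mitochondria, had 4.39, 4.35 and 4.56 FPKM in siYBX1 replicates 1 to 3, against 5.58, 5.34 and 5.16 FPKM in siNC replicates 1 to 3 (log2 fold change -0.23, adjusted p = 0.0244, limma). Groups did not overlap for either gene, but these calls were small and fragile. All 4 calls were lost without a filter on low values, where only Myo7a, otherwise below the filter, was called lower. The number that fell was 2 after the length correction or with a filter of 5 FPKM, and 6 with voom on recovered reads. It was 0 without siYBX1 replicate 1, siYBX1 replicate 2, siNC replicate 1 or siNC replicate 3, 1 without siYBX1 replicate 3, and 3 without siNC replicate 2. Myo5a, Myo1c and Myo7a are named here after their values were seen.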
